A study of Rattus norvegicus with 10 samples.

Results

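The junctions that seal the endothelium of brain vessels were examined through 6 genes: Cldn5, Ocln, Tjp1, Esam, Cdh5 and Pecam1. They were taken by symbol from a table of 25269 loci, in which 16647 distinct names occur. Each of the 6 matched 1 locus, and all 6 were abundant enough to be tested among 16194 rows (mean of at least 0.5 FPKM, sequenced fragments relative to transcript length in kilobases and to the library's total). The libraries were polyadenylated RNA of whole hippocampus from male Sprague-Dawley rats of 200 to 240 g, frozen 1 week after surgery and after a test of learning. In 5 libraries the rats had a traumatic brain injury (TBI) by fluid percussion, a pulse of fluid pressure onto the brain's covering, and in 5 they had sham surgery. All animals share the strain and the sex, and no allele or drug is named. The hemisphere, the severity of the injury and whether each library is 1 animal are not stated in the labels, so a p-value here reflects library-to-library spread, which may be partly technical.

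Endothelial cells of the brain are joined by continuous tight junctions, which close the space between cells, and by adherens junctions, which hold the cells together. Claudins and occludin span the membrane in the tight junction, zonula occludens proteins tie them to actin, and VE-cadherin with its catenins forms the adherens junction. Immunoglobulin-like molecules such as ESAM and PECAM-1 line the same contacts and take part in the passage of leukocytes. These junctions are the physical part of the blood-brain barrier, whose leakage after brain trauma is well known.

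The libraries differed in their levels of tissue and cell type markers. Whether the dissected pieces held different tissue was not tested. Markers of meninges and matrix summed to 66.2 to 756 FPKM in TBI and 58.5 to 567 FPKM in sham, and 3 libraries, TBI 1, sham 2 and sham 4, stood above the other 7 in these markers. Of 13 matched markers 1, the collagen Col1a2, is listed at 0 throughout. The summed markers of pericytes and smooth muscle were highest in the same 3 libraries (106 to 357 FPKM in TBI, 105 to 361 FPKM in sham). Not every gene of that list was: Rgs5, Pdgfrb and Tagln were highest there, whereas Higd1b was lowest in TBI 1 (3.06 FPKM) and Cspg4 in sham 2 (3.10 FPKM). Choroid plexus markers summed to 91.6 to 33134 FPKM in TBI and 53.4 to 31981 FPKM in sham. Neuronal markers summed to 2521 to 4689 FPKM in TBI and 3664 to 4794 FPKM in sham, and microglial markers to 162 to 281 FPKM in TBI and 150 to 210 FPKM in sham. Of the hippocampal markers, Neurod6 lay between 43.9 and 143 FPKM and Wfs1 between 64.0 and 265 FPKM, both lowest in TBI 1, while Prox1 and C1ql2 were lowest in sham 1 (6.99 and 41.7 FPKM), and Fibcd1 is listed at 0 in all 10 libraries. Results that move with these 3 libraries are given with and without them. The read depth behind these values is not known, and counting error could not be separated.

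The sequence before the start of the gene is shown for the 2 tight junction strand proteins, Cldn5, whose injured and sham libraries did not overlap, and Ocln, whose libraries did. These are 250 bases upstream of the annotated start in RefSeq (build GRCr8, not the rn5 build of the values), read 5′ to 3′ on the strand of the gene. Of the 6 genes 3 matched an entry there, the third being Tjp1. Capitals mark matches to any of 7 short motifs on either strand: CCAAT (the CCAAT box), GGGCGG (the GC box), TATAAA (the TATA box), CAGGTG (an E-box), AGGAAG (bound by ETS factors), GTAAACA (bound by forkhead factors) and AACAAT (bound by SOX factors).
Cldn5, chr11:95718599-95718848, minus strand: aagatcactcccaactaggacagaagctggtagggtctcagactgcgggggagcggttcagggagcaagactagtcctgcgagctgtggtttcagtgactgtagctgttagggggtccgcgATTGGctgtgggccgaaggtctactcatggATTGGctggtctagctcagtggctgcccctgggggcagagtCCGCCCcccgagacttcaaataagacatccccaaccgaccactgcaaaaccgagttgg
Ocln, chr2:33441199-33441448, minus strand: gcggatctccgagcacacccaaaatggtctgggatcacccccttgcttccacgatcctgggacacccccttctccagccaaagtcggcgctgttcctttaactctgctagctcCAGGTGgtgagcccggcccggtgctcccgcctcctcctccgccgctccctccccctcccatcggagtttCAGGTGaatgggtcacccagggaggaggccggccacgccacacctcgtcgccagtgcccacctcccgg
The Cldn5 window holds ATTGG, the reverse complement of the CCAAT box, 2 times, and 1 GC box (CCGCCC, the reverse complement of GGGCGG). The Ocln window holds the E-box CAGGTG, the sequence that Snail-family repressors bind, 2 times. Of all 33469 windows of this length 34% hold a CCAAT box, 30.5% a GC box and 15.9% this E-box. A match describes the letters only.

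Cldn5 encodes claudin-5, the main claudin of the blood-brain barrier. Cldn5 was at 54.3, 51.9, 46.8, 45.3 and 47.7 FPKM in TBI 1 to TBI 5 and at 61.3, 67.2, 62.0, 82.4 and 68.5 FPKM in sham 1 to sham 5. All injured libraries lay below all sham libraries, with 54.3 FPKM as the highest injured and 61.3 FPKM as the lowest sham value. The mean was 49.2 ± 3.76 FPKM in TBI and 68.3 ± 8.49 FPKM in sham (SD, n = 5 each), a difference of -27.9%. The log2 difference, on the scale of log2(FPKM + 0.5), was -0.46 (SE 0.09, 95% interval -0.67 to -0.26), a fold of 0.726 with an interval of 0.629 to 0.837.

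After Benjamini-Hochberg adjustment over all rows limma gave an adjusted p of 0.983 for Cldn5, so the difference did not pass. No row of the table did: 0 of 16194 passed (0%), with 0.698 as the lowest adjusted p. Before adjustment 472 rows (2.91%) had p under 0.05 in limma, of which 244 (1.51%) were lower and 228 (1.41%) were higher in TBI. By unadjusted p Cldn5 ranked 4 of the 16194 (limma, p = 0.000461), and the exact two-sided permutation test over all ways of assigning the libraries to 2 groups of 5 gave p = 0.00794, the smallest it can give. Of the 6 junction genes 1, Cldn5, had groups that did not overlap with TBI lower, where 0.241% of all rows did so, and 2, Cldn5 and Esam, had an unadjusted p under 0.05 with a lower mean. Cldn5 was picked out in an earlier look at these data, so these counts are no independent evidence. In whole tissue, fewer endothelial cells and less RNA per cell cannot be told apart. Without TBI 1, sham 2 and sham 4 the log2 difference of Cldn5 was -0.41, close to that over all libraries.

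**Figure D1:**
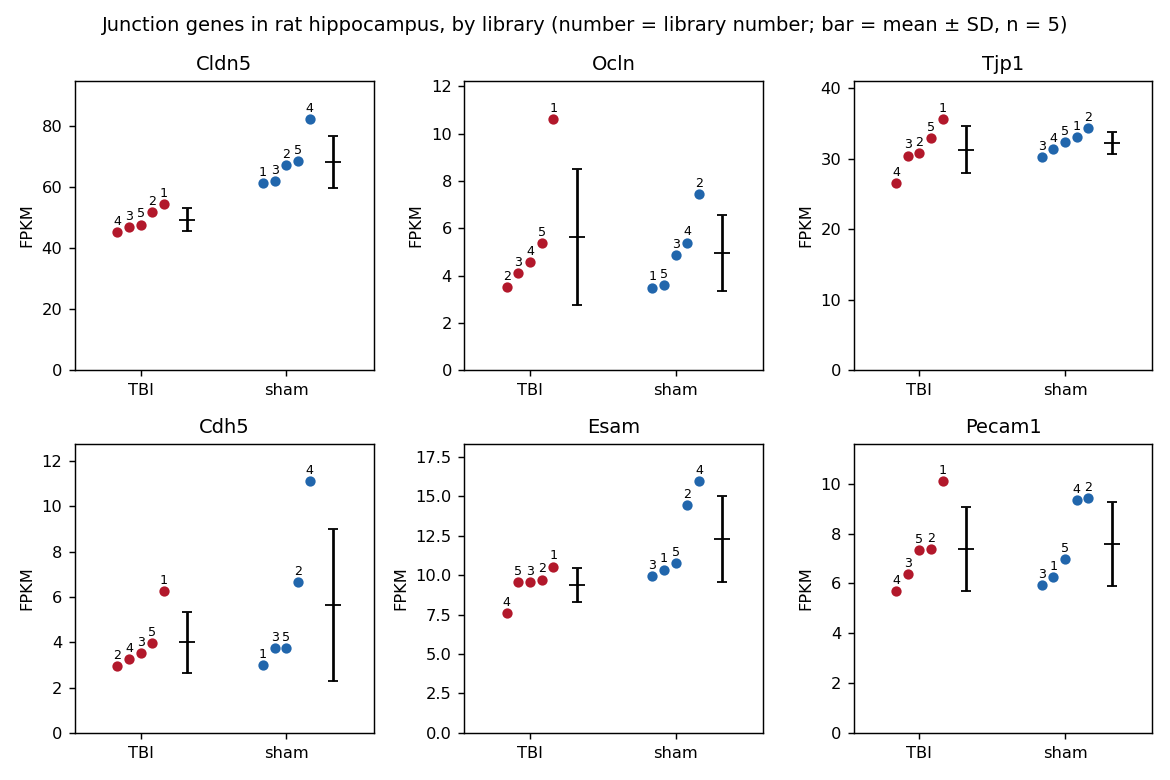
FPKM of the 6 junction genes in each library, TBI in red on the left and sham in blue on the right of each panel, with the library number above each point and the mean ± SD (n = 5) as a bar. The Cldn5 libraries separate, 45.3 to 54.3 FPKM in TBI and 61.3 to 82.4 FPKM in sham, while in the other 5 genes the groups overlap.

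Ocln encodes occludin, the other membrane-spanning protein of the tight junction strand, which epithelia make as well. Ocln was at 10.6, 3.51, 4.11, 4.56 and 5.38 FPKM in TBI 1 to TBI 5 and at 3.49, 7.43, 4.87, 5.40 and 3.58 FPKM in sham 1 to sham 5. The groups overlapped almost entirely, and TBI 1 and sham 2 were the highest of their groups. Those 2 libraries also had the highest choroid plexus marker sums, 33134 FPKM in TBI 1 and 31981 FPKM in sham 2; the part of these cells in the Ocln values was not tested. The mean was 5.64 ± 2.87 FPKM in TBI and 4.95 ± 1.61 FPKM in sham (SD, n = 5 each), with a log2 difference of 0.12 (95% interval -0.50 to 0.74, limma adjusted p = 0.983). Without TBI 1 the difference was -0.12, and with the choroid plexus score as a covariate -0.15.

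Tjp1 encodes ZO-1, the scaffold that binds claudins and occludin to the actin cytoskeleton and that many cell types make. Tjp1 was at 35.7, 30.8, 30.5, 26.6 and 32.9 FPKM in TBI 1 to TBI 5 and at 33.1, 34.3, 30.3, 31.4 and 32.4 FPKM in sham 1 to sham 5. It was the steadiest of the 6, with a coefficient of variation of 7.95% over the 10 libraries, and the sham values lay within the range of the injured ones. Its log2 difference was -0.05 (95% interval -0.23 to 0.13, limma adjusted p = 0.983), which as a fold is 0.966 with an interval of 0.851 to 1.10.

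Esam encodes an immunoglobulin-like adhesion molecule of endothelial tight junctions, also found on platelets. Esam was at 10.5, 9.70, 9.57, 7.59 and 9.56 FPKM in TBI 1 to TBI 5 and at 10.3, 14.4, 9.93, 15.9 and 10.8 FPKM in sham 1 to sham 5. The groups overlapped only through TBI 1, which lay above sham 1 and sham 3, and sham 2 and sham 4 stood above every other library. The mean was 9.39 ± 1.08 FPKM in TBI and 12.3 ± 2.72 FPKM in sham (SD, n = 5 each), with a log2 difference of -0.35 (SE 0.14, 95% interval -0.67 to -0.03). Its unadjusted p was 0.0334 and its adjusted p 0.983 in limma, and the exact permutation p was 0.0238. Without TBI 1, sham 2 and sham 4 the difference was -0.18. With all 10 libraries and the meninges and matrix score as a covariate it was -0.35 (limma adjusted p = 0.889).

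Cdh5 encodes VE-cadherin, the cadherin of endothelial adherens junctions. Cdh5 was at 6.27, 2.96, 3.51, 3.25 and 3.96 FPKM in TBI 1 to TBI 5 and at 2.98, 6.66, 3.73, 11.1 and 3.75 FPKM in sham 1 to sham 5. The 3 highest values belonged to sham 4, sham 2 and TBI 1, which also had the most meningeal matrix markers, and the other 7 lay between 2.96 and 3.96 FPKM in both groups. The mean was 3.99 ± 1.33 FPKM in TBI and 5.64 ± 3.36 FPKM in sham (SD, n = 5 each), and the log2 difference -0.34 had a 95% interval of -1.05 to 0.36 (limma adjusted p = 0.983). Without sham 4 alone it was -0.08, and without TBI 1, sham 2 and sham 4 it was -0.02. With all 10 libraries and the meninges and matrix score as a covariate it was -0.33 (limma adjusted p = 0.889).

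Pecam1 encodes PECAM-1 (CD31), which endothelium shares with platelets and leukocytes. Pecam1 was at 10.1, 7.37, 6.39, 5.68 and 7.34 FPKM in TBI 1 to TBI 5 and at 6.24, 9.43, 5.92, 9.36 and 6.97 FPKM in sham 1 to sham 5. The groups overlapped throughout, again with TBI 1, sham 2 and sham 4 at the top. Its log2 difference was -0.04 (95% interval -0.42 to 0.34, limma adjusted p = 0.993), and it took the other sign, up to 0.060, in 5 of 23 alternative analyses. Blood, platelet and leukocyte markers, of which 9 of 15 symbols matched, summed to 17.4 to 42.6 FPKM in TBI and 7.36 to 35.6 FPKM in sham. Of the platelet genes Ppbp is listed at 0, Gp9 ran from 0 to 0.356 FPKM and Pf4 from 1.12 to 8.04 FPKM, highest in TBI 1. The part of blood, platelets and leukocytes in the Pecam1 values was not tested.

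**Figure D2:**
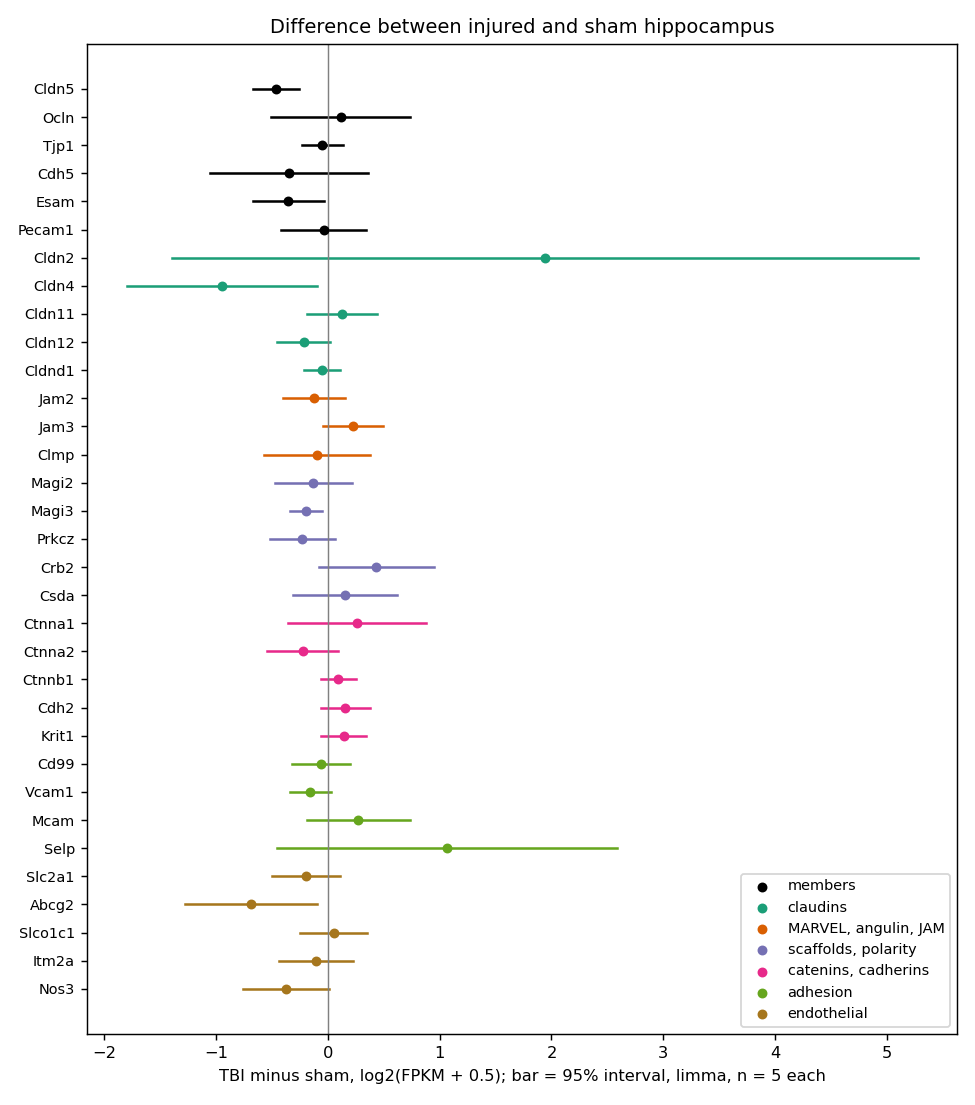
Log2 difference, TBI minus sham, with its 95% interval from limma (n = 5 each) for the 6 members in black and for named genes of the other junction and endothelial lists in colour. The interval of Cldn5 runs from -0.67 to -0.26 and that of Tjp1 from -0.23 to 0.13, while Cldn2 has by far the widest interval of those drawn.

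In level, scaled by length, Cldn5 came first with a mean of 58.7 FPKM over the 10 libraries, followed by Tjp1 (31.8), Esam (10.8), Pecam1 (7.48), Ocln (5.30) and Cdh5 (4.82). Cldn5 stood above 89.7% of tested rows and Cdh5 above 36.5%. The order Cldn5, Tjp1, Esam, Pecam1 held in 10 of 10 libraries, although Esam exceeded Pecam1 by as little as 1.04 times in 1 of them. Pecam1 exceeded Ocln in 9 libraries and Ocln exceeded Cdh5 in 8, so the lowest 3 are not cleanly ordered. The excess of Cldn5 over Tjp1 was between 1.45 and 2.63 times.

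Cldn5 was next set against other genes within each library. For genes largely confined to endothelium this takes out the share of endothelial RNA as far as they carry it; for Tjp1 and Ocln, which other cells make as well, it does not. There were 6 such comparisons, the other 5 junction genes and the mean of an endothelial set (Flt1, Kdr, Tek, Tie1, Eng, Emcn, Egfl7, Robo4, Cd93, Clec14a, Erg, Sox17 and Sox18, of which 12 passed the filter on level and were averaged). Tjp1 gave the clearest separation. Tjp1 itself differed little between the groups (log2 difference -0.05), so this comparison largely repeats that of Cldn5 alone. Cldn5 was singled out for its low values in TBI, a choice that adjustment over the 6 comparisons does not cover. The log2 level of Cldn5 minus that of Tjp1 was 0.65 ± 0.10 in TBI and 1.06 ± 0.19 in sham (SD, n = 5 each), and all injured libraries lay below all sham libraries. The difference of -0.41 had an exact two-sided permutation p of 0.00794, or 0.0476 adjusted over the 6 comparisons. It lost that call without TBI 1 (adjusted p = 0.0952, exact permutation), TBI 3 (0.0714) or TBI 5 (0.0952), and without TBI 1, sham 2 and sham 4 together (-0.33, 0.0857), where the smallest p possible is 0.0286.

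Against the other genes of the endothelium the groups overlapped. Relative to Pecam1, Cldn5 was at 2.68 ± 0.20 in TBI and 3.11 ± 0.20 in sham, a log2 difference of -0.43 (exact permutation p = 0.0238, adjusted p = 0.0714). Relative to the endothelial set it was at 3.41 ± 0.18 in TBI and 3.69 ± 0.18 in sham, a log2 difference of -0.28 (exact permutation p = 0.0476, adjusted p = 0.0952). The endothelial set itself averaged 2.22 ± 0.21 in TBI and 2.41 ± 0.32 in sham on the log2 scale.

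Relative to Ocln the difference was -0.58 (exact permutation p = 0.0794, adjusted p = 0.119). Over all 10 libraries the difference was -0.11 ± 0.09 (SE) relative to Esam (exact permutation p = 0.27, adjusted p = 0.324) and -0.12 ± 0.29 relative to Cdh5 (exact permutation p = 0.683, adjusted p = 0.683). The second has so wide an error that it bounds little, and it took the other sign without TBI 1 or without sham 1. Without TBI 1, sham 2 and sham 4 the difference was -0.39 relative to Cdh5, -0.23 relative to Esam, -0.47 relative to Pecam1 and -0.35 relative to the endothelial set (exact permutation, adjusted p = 0.0857 for each). Because Cldn5 was singled out for its low values in TBI, these 6 differences lean in that direction by choice.

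**Figure D3:**
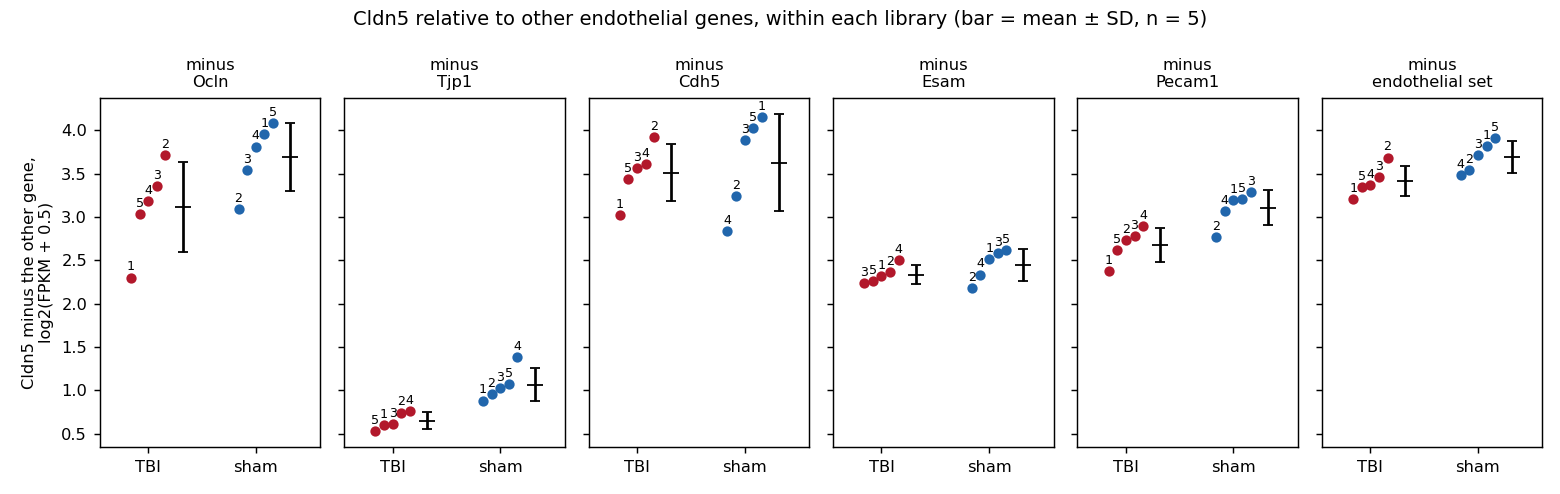
Cldn5 minus each other junction gene, and minus the mean of the endothelial set, on the log2(FPKM + 0.5) scale within each library, TBI in red on the left and sham in blue on the right, with library numbers and mean ± SD (n = 5). Relative to Tjp1 the groups separate, with means of 0.65 in TBI and 1.06 in sham; relative to the other genes they overlap.

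Across the 10 libraries the 6 genes varied together to unequal degrees. Of 15 pairs 15 had a positive Pearson r, 6 passed Benjamini-Hochberg adjustment of its permutation p over the 15, and 2 passed by Spearman's rho. With the groups pooled, the closest pair was Cldn5 and Esam, with r = 0.858 (permutation p = 0.00011, adjusted 0.00165) and rho = 0.927 (permutation p = 0.0004, adjusted 0.006). Without TBI 4 and sham 4, the libraries farthest from the median of Cldn5, r was 0.658. Over the 7 libraries outside TBI 1, sham 2 and sham 4 it was 0.759. Both genes had lower means in TBI, which enters the pooled r. With each group's mean taken out, r over the 10 libraries was 0.816 for Cldn5 and Esam, below 0.893 for Esam and Pecam1. Cldn5 and Pecam1 then had r = 0.803, against 0.448 with the groups pooled.

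The correlation of Cdh5 with the immunoglobulin-like genes was low outside TBI 1, sham 2 and sham 4, the 3 libraries rich in matrix markers. Cdh5 ran only from 2.96 to 3.96 FPKM in the other 7, so r there cannot show what the link rests on. With each group's mean taken out, r over the 10 libraries was 0.871 with Esam and 0.843 with Pecam1. Cdh5 and Esam had r = 0.842 (permutation p = 0.00232, adjusted 0.0174; rho = 0.636, permutation p = 0.0551, adjusted 0.158), but 0.347 without sham 2 and sham 4 and 0.171 over the 7 other libraries. Cdh5 and Pecam1 had r = 0.819 (permutation p = 0.00514, adjusted 0.0257; rho = 0.636, permutation p = 0.0544, adjusted 0.158). That r was 0.801 without sham 2 and sham 4 and 0.148 over the 7. The 3 libraries form a group of their own in the matrix markers, and the other 7 still divide by choroid plexus markers, with 53.4 to 452 FPKM in TBI 2, sham 1 and sham 5 and 9328 to 18227 FPKM in TBI 3, TBI 4, TBI 5 and sham 3. Ocln was at 3.49 to 3.58 FPKM in the first of these sets and 4.11 to 5.38 FPKM in the second. Outside these 7, sham 4 did not follow that division. Its choroid plexus markers summed to 87.8 FPKM, and its Ocln was at 5.40 FPKM. Over the 7 libraries r ran from -0.442 (Cldn5 and Ocln) to 0.886 (Tjp1 and Esam), and 11 of 15 pairs were positive.

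**Figure D4:**
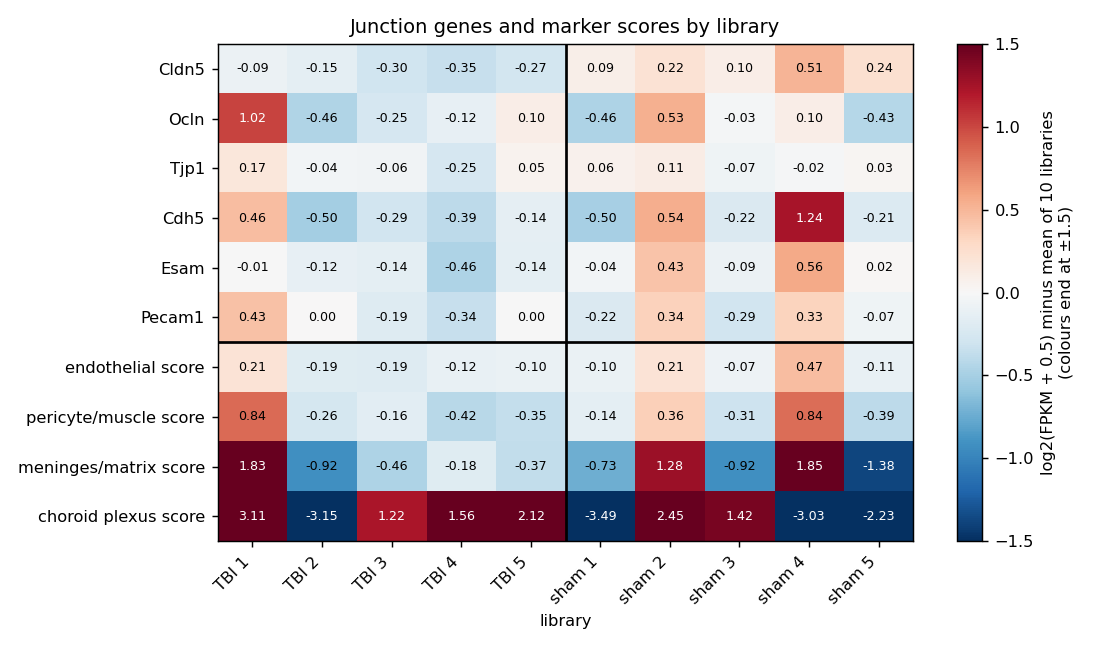
Log2(FPKM + 0.5) of the 6 junction genes minus their mean over the 10 libraries, above the mean centred log2 level (score) of 4 marker lists, with TBI libraries on the left and sham libraries on the right of the line. Cldn5 is below 0 in every TBI and above 0 in every sham library, whereas Cdh5 and Pecam1 are highest in TBI 1, sham 2 and sham 4, as is the meninges and matrix score.

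The genes whose pattern over the 10 libraries was most like that of each member were sought among 10838 named genes with a mean of at least 1 FPKM. For Cldn5 these were Hspa12b (r = 0.941, rho = 0.891), Akr1cl (r = 0.892) and Grrp1 (r = 0.874), and Hspa12b was the only gene with an r over 0.9. For Esam they were Nos3, the endothelial nitric oxide synthase (r = 0.964), Sox17, a transcription factor of arterial endothelium (r = 0.914), and Lhfp (r = 0.912). For Cdh5 they were Apol9a (r = 0.988), Ahnak (r = 0.987) and the endothelial receptor Acvrl1 (r = 0.973), with 95 genes over 0.9. For Ocln they were Iqgap1 (r = 0.981), Vasn (r = 0.977) and Actn4 (r = 0.972), with 145 genes over 0.9. For Pecam1 they were Mfap2 (r = 0.958), Rem1 (r = 0.933) and Esyt1 (r = 0.928). For Tjp1 they were Oaz1 (r = 0.897), Samd4a (r = 0.863) and Serinc3 (r = 0.858), and 0 genes were over 0.9. These are the highest of many values and describe likeness over 10 libraries only, which also differed in tissue markers. The groups were pooled, so a difference between them enters r. Hspa12b, Akr1cl and Grrp1 had lower means in TBI, as Cldn5 did (2.38, 4.18 and 1.84 FPKM in TBI, 3.44, 7.01 and 2.66 FPKM in sham).

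Among other junction genes, 70 of 88 listed symbols matched and 55 were tested. Of these 0 passed adjustment (limma). An unadjusted p under 0.05 occurred with TBI higher in 0 (all rows 1.41%) and with TBI lower in 2 (all rows 1.51%) of the 55. Their median log2 difference was 0.09, against 0.0013 over all tested rows, and 20 of 55 (36.4%) had a lower mean in TBI, against 49.6% of all rows. That count was 27 of 55 without TBI 1 and 31 of 55 with the choroid plexus score as a covariate, so the lean to higher means did not hold there. Of the 55, Cldn4 alone had a difference below that of Cldn5, as did 218 of all 16194 tested rows. The median of the 6 members was -0.20.

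Of 11 tested claudins 5 had a lower mean in TBI. The most abundant was Cldn11, the claudin of myelin, at 161 ± 27.0 FPKM in TBI and 147 ± 22.8 FPKM in sham (SD, n = 5 each). Cldnd1, a distant relative of the claudins, was at 38.1 ± 1.04 FPKM in TBI and 39.7 ± 3.47 FPKM in sham. Cldn12, a claudin of broad expression, was at 10.9 ± 1.17 FPKM in TBI and 12.8 ± 1.77 FPKM in sham, a log2 difference of -0.22 (limma adjusted p = 0.983). Cldn2, the pore-forming claudin of choroid plexus epithelium, ran from 0.202 to 80.9 FPKM in TBI and from 0.189 to 48.4 FPKM in sham. It was highest in TBI 1 and sham 2, which also led in choroid plexus markers. Cldn4, an epithelial claudin near the limit of the filter, averaged 0.19 ± 0.232 FPKM in TBI and 0.97 ± 0.87 FPKM in sham, a log2 difference of -0.94 (limma adjusted p = 0.983).

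Of 6 tested tight junction proteins of the MARVEL, angulin and JAM families 2 had a lower mean in TBI. The junctional adhesion molecule Jam3 was at 26.3 ± 4.86 FPKM in TBI and 22.1 ± 1.36 FPKM in sham, a log2 difference of 0.23 (limma adjusted p = 0.983). Jam2, its relative in endothelium, was at 14.8 ± 2.51 FPKM in TBI and 16.1 ± 2.15 FPKM in sham. Clmp was at 15.3 ± 4.88 FPKM in TBI and 15.6 ± 1.19 FPKM in sham.

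Of 18 tested scaffold and polarity genes 5 had a lower mean in TBI. Magi3, a PDZ scaffold of tight junctions, was at 7.09, 6.78, 6.87, 6.88 and 7.13 FPKM in TBI 1 to TBI 5 and at 8.05, 8.13, 8.11, 7.70 and 8.20 FPKM in sham 1 to sham 5. It was the only other junction gene of the 55 tested whose groups did not overlap (0.241% of all rows did so with TBI lower), with a small spread in both and a log2 difference of -0.20 (limma adjusted p = 0.983). The kinase Prkcz was at 48.9 ± 8.72 FPKM in TBI and 56.6 ± 4.99 FPKM in sham, and Magi2, which neurons also make, at 22.3 ± 4.87 FPKM in TBI and 24.1 ± 3.25 FPKM in sham. Csda, which encodes a ZO-1 binding transcription factor, was at 27.9 ± 9.11 FPKM in TBI and 24.4 ± 4.64 FPKM in sham. The polarity gene Crb2 was at 0.95 ± 0.442 FPKM in TBI and 0.546 ± 0.186 FPKM in sham.

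Of 12 tested catenin, cadherin and nectin genes 3 had a lower mean in TBI. Beta-catenin (Ctnnb1), which binds VE-cadherin and other cadherins, was at 120 ± 9.22 FPKM in TBI and 112 ± 3.98 FPKM in sham. N-cadherin (Cdh2) was at 37.6 ± 4.47 FPKM in TBI and 33.6 ± 3.51 FPKM in sham. The neuronal catenin Ctnna2 was at 51.0 ± 9.22 FPKM in TBI and 59.1 ± 7.69 FPKM in sham. Ctnna1, alpha-catenin of most other cells, was at 93.2 FPKM in TBI 1, at 30.5 to 33.4 FPKM in the other injured libraries and at 29.1 to 37.2 FPKM in sham. Krit1, which stabilises endothelial junctions, was at 14.0 ± 1.39 FPKM in TBI and 12.6 ± 1.18 FPKM in sham.

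Of 8 tested adhesion and transmigration genes 5 had a lower mean in TBI. Cd99 was at 41.6 ± 3.28 FPKM in TBI and 43.9 ± 7.89 FPKM in sham, and Mcam (CD146) at 19.3 ± 6.28 FPKM in TBI and 15.6 ± 3.66 FPKM in sham. The leukocyte receptor Vcam1 was at 10.7 ± 0.959 FPKM in TBI and 12.0 ± 0.77 FPKM in sham (limma adjusted p = 0.983). P-selectin (Selp) ran from 0 to 5.56 FPKM in TBI and from 0 to 1.81 FPKM in sham.

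Of 31 symbols listed as other endothelial genes 27 matched and 24 were tested. Of these 0 passed adjustment and 17 (70.8%) had a lower mean in TBI, against 49.6% of all rows. In limma 1 had an unadjusted p under 0.05 (all rows 2.91%), and 0 had groups that did not overlap (all rows 0.241% in each direction). The count of 17 was 20 without TBI 1, 14 without sham 4 and 13 without TBI 1, sham 2 and sham 4. The median log2 difference of the 24 was -0.14. Among the 24, the difference of Abcg2 alone was below that of Cldn5, where 218 of all 16194 tested rows lay below it. Abcg2, a drug efflux pump of the barrier, was at 2.72 ± 1.14 FPKM in TBI and 4.67 ± 1.59 FPKM in sham, a log2 difference of -0.69 (limma adjusted p = 0.983). The glucose transporter Slc2a1 was at 56.4 ± 7.09 FPKM in TBI and 65.3 ± 12.5 FPKM in sham. Itm2a was at 45.8 ± 7.12 FPKM in TBI and 49.5 ± 9.63 FPKM in sham, the thyroid hormone transporter Slco1c1 at 39.3 ± 7.52 FPKM in TBI and 37.5 ± 4.68 FPKM in sham, and Nos3 at 2.39 ± 0.408 FPKM in TBI and 3.30 ± 0.958 FPKM in sham. The summed endothelial level was 229 to 308 FPKM in TBI and 242 to 337 FPKM in sham, highest in sham 4 and TBI 1.

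Neighbouring genes were looked at because values without strand can mix overlapping transcripts. In the GRCr8 gene table, used for names and neighbours only, Cdc45 lies next to Cldn5. Cdc45, a replication protein, was at 0.571 ± 0.106 FPKM in TBI and 0.59 ± 0.163 FPKM in sham, near the limit of the filter. Marveld2 (tricellulin), a relative of occludin, lies next to Ocln and was at 1.44 ± 0.716 FPKM in TBI and 1.27 ± 0.378 FPKM in sham. Cdh11 lies next to Cdh5 and was at 17.0 ± 0.724 FPKM in TBI and 15.6 ± 0.884 FPKM in sham. Gtf2h2, on the other side of Ocln, was at 6.95 ± 0.942 FPKM in TBI and 6.57 ± 0.933 FPKM in sham. Vsig2, next to Esam, was at 1.51 ± 0.393 FPKM in TBI and 1.77 ± 0.177 FPKM in sham. These neighbours did not pass adjustment, as no row of the table did (limma adjusted p of 0.998 for Cdc45 and 0.983 for the others). The neighbours of Tjp1 and Pecam1, and Ppp2cal1, Bean1 and Msantd2, had no tested row. All protein-coding neighbours listed lay before or after their member in GRCr8, and overlap in rn5 was not examined.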

How the data were processed

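The authors deposited FPKM values per locus, with a status word per library. The tools named in the submitters' processing notes are Cufflinks, Cuffdiff, Bowtie, Bowtie2, TopHat and TopHat2, with the rn5 build; their roles, their versions and the annotation: not given in the sources used here. Columns have 75th percentiles of 13.1 to 13.5 FPKM and sums of 523239 to 629660 FPKM, so they had been scaled between libraries. The 10 status columns were not used. FPKM carries no strand and hides the depth, so no count test was run.

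Rows sharing a symbol, ignoring case, were summed per library, and the 7177 unnamed loci were kept single, which left 23824 rows. Log2(FPKM + 0.5) of rows with a mean of at least 0.5 FPKM was tested with limma 3.58.1 in R 4.3.3 (mean trend, two-sided, Benjamini-Hochberg adjustment, threshold 0.05). The same procedure was tested on simulated data. Single values had exact permutation tests over all assignments of the libraries, and correlations 100000 permutations (Python 3.11.15, numpy 2.4.6). Genes were named by rule: of each list the 3 with the highest mean and the 2 with the smallest p, and for each member the 3 most alike. The members and lists were chosen with earlier results of these data known, and so was the choice of TBI 1, sham 2 and sham 4 to leave out. Alternatives covered pseudocount, filter, scaling, variance model, library weights, summing, block, covariates and libraries left out.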

Additional observations from a re-analysis of the deposited data

Results flagged for a closer look

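In 1 of 24 sets of 5 values tested for a stray library, Ocln in TBI, the highest library stood apart: TBI 1 was at 10.6 FPKM and the other injured libraries at 3.51 to 5.38 FPKM, a gap of 0.737 of the whole range, above the limit of 0.71. Chance gives such a gap in about 1 in 20 sets. TBI 1 also had the highest sums of choroid plexus markers (33134 FPKM) and of meninges and matrix markers (756 FPKM), and the lowest of neuronal markers (2521 FPKM, against 3713 to 4689 in the other injured libraries). The part of these in the Ocln value was not tested.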

How the results depend on the processing

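Of the 6 junction genes 0 passed adjustment (limma) in any of 23 alternatives, and Cldn5, Cdh5 and Esam kept their sign in all of them, with log2 differences of -0.50 to -0.39, -0.51 to -0.02 and -0.42 to -0.18. Ocln (0.12) was -0.055 with array weights, -0.15 once the choroid plexus score was a covariate, and -0.12 to 0.26 with 1 library left out. Pecam1 (-0.04) was 0.060 without sham 2, sham 4 and TBI 1, and -0.15 to 0.044 with 1 library left out, and Tjp1 (-0.05) was -0.10 to 0.0067. Over all rows 2 passed without sham 2, sham 4 and TBI 1, and 0 to 2 with 1 library left out, none of them a junction gene. Other junction genes with a lower mean numbered 20 as reported and 31 with the choroid plexus score as a covariate. Other endothelial genes with a lower mean numbered 17 and, without sham 2, sham 4 and TBI 1, 13. For Cldn5 relative to Tjp1 (-0.41) the call was lost with the replicate block (-0.41, adjusted p = 0.188) and without sham 2, sham 4 and TBI 1 (-0.33), and the value was -0.46 to -0.33 with 1 library left out. Relative to Pecam1 (-0.43) Cldn5 passed in 2 of 15 alternatives. These were a pseudocount of 1 (-0.42, adjusted p = 0.0476 by exact permutation) and leaving out sham 2 (-0.51, adjusted p = 0.0238). The value was -0.51 to -0.35 with 1 library left out. Relative to the endothelial set (-0.28) Cldn5 passed in 1 of 16 alternatives, without TBI 2 (-0.35, adjusted p = 0.0476 by exact permutation). With the median of the set in place of its mean the difference was -0.23 (exact permutation p = 0.135, adjusted p = 0.202). With 1 library left out it was -0.35 to -0.22. Relative to Cdh5 (-0.12) it was -0.32 to 0.013 with 1 library left out and -0.39 without sham 2, sham 4 and TBI 1, and relative to Esam (-0.11) -0.18 to -0.069 and -0.23. The cause of these shifts was not tested. The values gave no sign that the numbers in the titles pair the libraries, but 5 numbers are too few to exclude it. Same-numbered libraries had correlations of -0.379 to 0.306 of their deviations from the group means, and 0 of 5 injured libraries were most like their own number. With the block Cldn5 kept its log2 difference of -0.46 (limma p = 0.00386, adjusted p = 0.963) and 0 rows passed; in the block the smallest exact p is 0.0625. Depth is unknown, and precision is limited by 5 libraries a group.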
